A study of Homo sapiens with 36 samples.

Results

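The MYC, MAX and MXD network is a set of transcription factors that share a leucine-zipper dimer code, and 10 of its genes are described here across 6 clones of H446, a cell line from a small-cell lung cancer of the NEUROD1-high subtype (SCLC-N). The 10 genes, chosen by name, are MYC, MYCN, MAX, MXI1, MXD1, MXD3, MXD4, MNT, MGA and MLX. Of these, 9 are among the 19014 genes in the table of normalized counts; MYCN stands only in the table of 57820 genes in FPKM, a level per gene length. By the GENCODE 29 annotation of GRCh38, MYC lies on chromosome 8, MYCN and MXD1 on 2, MXD4 on 4, MXD3 on 5, MXI1 on 10, MAX on 14, MGA on 15, and MNT and MLX on 17. All 9 passed the filter on low values, as did 15819 genes in all.

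The clones are 3 control clones carrying a non-targeting guide RNA (clones 3, 10 and 13, labelled WT) and 3 NEUROD1 knockout clones made with guide RNA #297 (clones 12, 15 and 2-1). Each clone received either the solvent DMSO or JQ1 at 1 µM for 24 h, with 3 libraries labelled as biological replicates for each clone and treatment, 36 in all. JQ1 displaces bromodomain and extra-terminal (BET) proteins from acetylated chromatin, and the comparisons ask how the network differs with JQ1, with loss of NEUROD1, and with both. Every knockout clone came from the same guide, each clone is 1 genome, and the labels do not say whether replicates were cultured separately, so p-values measure the spread between these clones.

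MYC, MYCN and MYCL bind DNA only as dimers with MAX, and these dimers activate genes that carry the E-box CACGTG. MXD1, MXI1 (also called MXD2), MXD3, MXD4 and MNT compete for the same MAX; the MXD proteins and MNT bring in the SIN3 histone deacetylase corepressor. MGA also pairs with MAX and is the DNA-binding scaffold of a Polycomb complex, PRC1.6. MLX is a second hub: it pairs with MNT, MXD1, MXD4 and with the glucose-sensing factors MondoA (gene MLXIP) and ChREBP (gene MLXIPL). In many blood and some solid cancers BET inhibition is known for lowering MYC, which makes the direction of MYC here of interest.

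Libraries held 13282337 to 18890506 reads on genes, except that of knockout clone 12, JQ1 replicate 1, with 31825795. This library also stood apart by content. Its summed normalized counts of 8 lung epithelium markers (6 in the table, none at 0) were 71540, against 2.33 to 132 in the other 35 libraries. For blood and immune markers (5 of 8 in the table) the sum was 18750, against 18.7 to 918 elsewhere, and for stroma and vessel markers (7 of 8) 72710, against 423 to 55336. Its own network values differed from its clone's other 2 libraries too: MGA was at 2719 against their mean of 1057, MXD1 at 764 against 409, MXD3 at 113 against 51.3, MYC at 2418 against 4076 and MNT at 568 against 845. Stroma and vessel markers also moved with genotype and treatment outside that library: their sums were 423 to 9802 in control libraries and 8467 to 55336 in the other knockout libraries. With JQ1, 5 of 5 tested fell in control clones and 4 of 5 in knockout clones, where 24.9% and 25.7% of all genes fell. Blood and immune sums were 18.7 to 125 in control libraries and 221 to 918 in the other knockout libraries. The part of these other transcripts in the results was not tested, and that was so for each marker list. Knockout clone 12, JQ1 replicate 1, is called the divergent library from here on, and results that rest on it are given with and without it.

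The labels held for both manipulations. NEUROD1, the deleted factor, had 5134 to 8692 normalized counts in the control libraries and 0 to 10.2 in the knockout libraries. HEXIM1, a P-TEFb inhibitor commonly used as a readout of BET inhibition, rose by 2.22 ± 0.07 (log2 fold change ± SE, limma adjusted p = 9.1e-06) in control clones and by 1.88 ± 0.07 (adjusted p = 2.22e-05) in knockout clones. Neuroendocrine markers summed to 24111 to 32239 in control libraries and to 2323 to 5095 in the other knockout libraries. With DMSO 6 of 8 tested markers, NEUROD1 among them, were lower in knockout clones and none higher, where 12.5% of all genes passed in either direction. The knockout libraries thus lack most of the neuroendocrine RNA of the SCLC-N label, and 1615 was the sum in the divergent library.

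Per gene length, MYC and MAX were the most abundant network transcripts in control clones with DMSO, at 60.1 ± 28.6 and 51.4 ± 6.80 FPKM (mean ± SD, n = 3 clones), and their clone ranges overlapped. MLX followed at 34.8 ± 3.88 FPKM and MXI1 at 24.0 ± 4.44 FPKM, each apart from its neighbours in the order. This order is one of means: in control clone 3 MYC was at 27.0 FPKM, below MLX at 39.2, so the range of MYC overlapped that of MLX too. MXD4 was at 10.2 ± 0.64 FPKM, MXD3 at 7.97 ± 0.28, MNT at 7.31 ± 0.15, MGA at 6.58 ± 1.75 and MXD1 at 2.22 ± 0.69. Only the ranges of MNT and MGA overlapped among these lower neighbours. MYCN, the paralogue amplified in neuroblastoma and in some small-cell lung cancers, was listed at 0 to 0.17 FPKM in every library of the series, and MYCL, the third family member, had 3.98 ± 1.39 FPKM in control clones with DMSO. MYCN shares its locus with the antisense gene MYCNOS, and the strand setting used in counting is not stated in the labels.

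Knockout clones with DMSO had another order: MAX at 58.0 ± 9.78 FPKM and MLX at 38.9 ± 3.75 FPKM came before MYC, at 25.2 ± 8.18 FPKM. With JQ1, MYC was again the highest, at 114 ± 39.5 FPKM in control clones and 73.1 ± 24.3 FPKM in knockout clones; in the latter its range overlapped that of MAX (61.8 ± 18.7 FPKM).

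**Figure D1:**
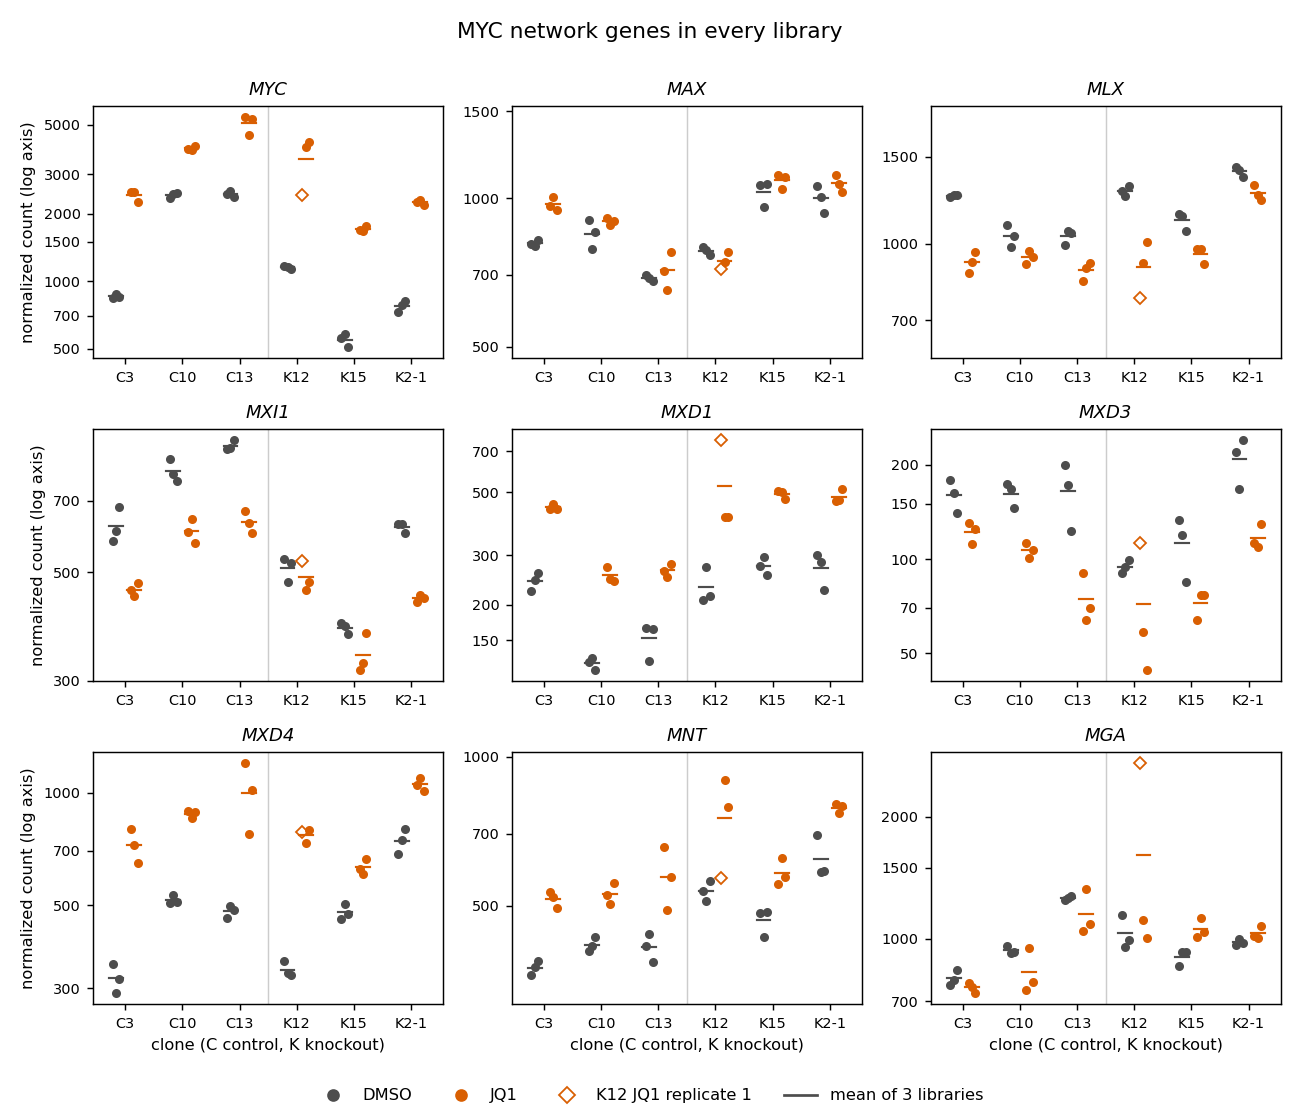
Normalized counts (log axis) of the 9 network genes in the table, by clone (C control, K knockout) and treatment; each point is 1 library, each line the mean of 3. JQ1 points lie above DMSO points in all 6 clones for MYC, MXD1, MXD4 and MNT and below them for MLX; the open diamond is the divergent library, highest of all for MGA at 2719.

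JQ1 changed most of the network, in both directions. In control clones 4 of 9 genes rose (MYC, MXD1, MXD4, MNT) and 3 fell (MXD3, MXI1, MLX), while 23.0% of all genes tested rose and 24.9% fell (limma, Benjamini-Hochberg adjusted p below 0.05). In knockout clones 5 rose (the same 4 and MGA) and 2 fell (MXD3 and MLX), where 23.9% and 25.7% of all genes did. Without the divergent library, 4 rose and 3 fell in knockout clones (26.2% and 30.2% of all genes, 56.4% in all): MGA lost its call and MXI1 gained one. With JQ1 so broad in effect, 7 of 9 calls stand against 47.9% of all genes in control clones and 49.6% in knockout clones. The median absolute change of the 9 genes was 0.45 (log2) in control clones, against 0.36 for all genes tested, and 0.38 in knockout clones, against 0.38.

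Independently of any fitted spread, the 3 JQ1 libraries lay above the 3 DMSO libraries in all 6 clones for MYC, MXD1, MXD4 and MNT, a pattern that 9.53% of all genes showed. MLX lay below in all 6 clones, as 9.76% of all genes did.

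**Figure D2:**
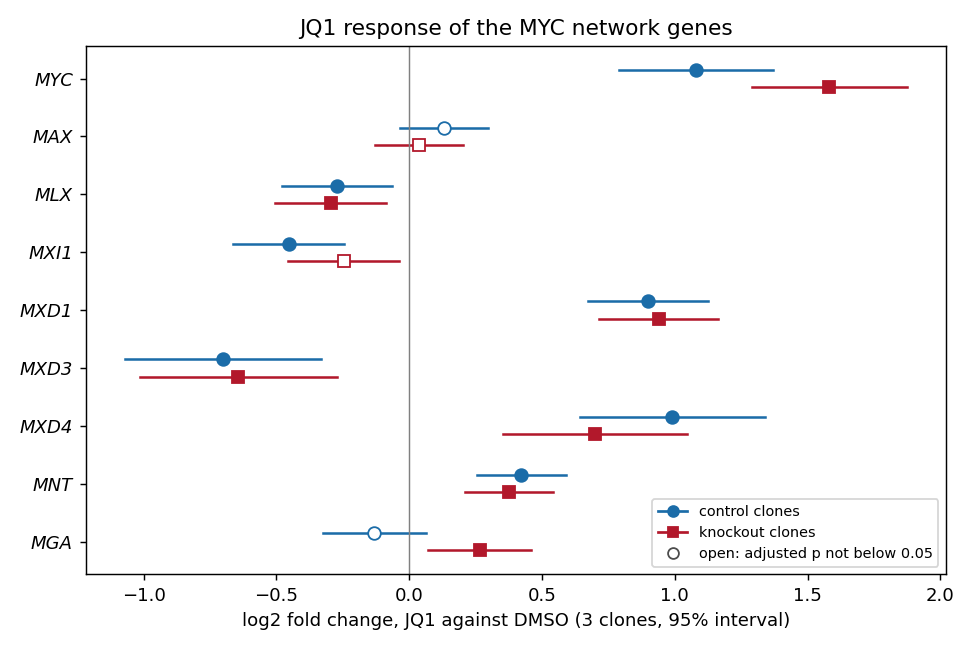
Log2 fold change of JQ1 against DMSO for each network gene in control clones (circles) and knockout clones (squares), with 95% intervals from limma over 3 clones each; filled symbols passed the adjusted threshold. MYC has the largest rise, 1.08 in control and 1.58 in knockout clones, and MXD3 the largest fall, -0.70 and -0.64.

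MYC itself, the activator of the network, rose with JQ1 in every clone. With DMSO the libraries of control clone 3 held 839, 881 and 846 normalized MYC counts, those of clone 10 held 2362, 2455 and 2469, and those of clone 13 held 2445, 2525 and 2374. With JQ1 the same clones held 2507, 2495 and 2259, then 3911, 3839 and 4035, then 5384, 4518 and 5324. Clone 3 was thus the low control clone under both treatments, and its JQ1 libraries reached about the DMSO level of the other control clones.

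In knockout clones with DMSO, clone 12 held 1173, 1161 and 1135 MYC counts, clone 15 held 556, 584 and 509, and clone 2-1 held 731, 780 and 815. With JQ1 clone 12 held 2418, 3978 and 4174, clone 15 held 1690, 1672 and 1770, and clone 2-1 held 2269, 2302 and 2184. The 2418 is the divergent library, and it still lay above every DMSO library of a knockout clone. Groups of JQ1 and DMSO libraries did not overlap in any clone.

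The MYC rise was 1.08 ± 0.13 (log2 fold change ± SE; adjusted p = 0.000319) in control clones, a 2.11-fold change, with clone ratios from 1.62 to 2.83. In knockout clones the rise was 1.58 ± 0.13 (adjusted p = 7.15e-05), 2.99-fold, with clone ratios from 2.90 to 3.11. Leaving out the divergent library gave 1.66 (adjusted p = 2.72e-05). The lowest knockout ratio, 2.90, lay just above the highest control ratio, 2.83, and how many of all genes separate this way was not counted. The test of the difference itself, 0.50 ± 0.18 (95% interval 0.09 to 0.91), did not pass over all genes (adjusted p = 0.153, and 0.0849 without that library).

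Loss of NEUROD1 came with less MYC RNA on average with DMSO, 827 ± 307 normalized counts (SD, n = 3 clones) against 1911 ± 914, but the clone ranges overlapped: control clone 3, at 856, lay between knockout clones 2-1 and 12. The difference of -1.12 ± 0.47 (log2) did not pass the threshold (limma adjusted p = 0.175). DESeq2 on the recovered reads called it (-1.21, adjusted p = 0.0435), and so did limma without control clone 3 (-1.63, adjusted p = 0.0399). With JQ1 the difference was -0.62 ± 0.34 (adjusted p = 0.283).

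None of the 9 network genes passed the genotype test with DMSO (limma), where 12.5% of all genes did; 3 (MNT, MXI1, MYC) had an unadjusted p below 0.05, edgeR called 0 and DESeq2 1. With JQ1 the genotype count was again 0 of 9 (12.0% of all genes), with 1 gene (MXD1) at an unadjusted p below 0.05 and 0 called by edgeR or DESeq2. For the difference in JQ1 response it was 0 of 9 (3.10% of all genes), with 2 (MGA, MYC) at an unadjusted p below 0.05 and 0 by edgeR or DESeq2. With 3 clones a group, an interval as wide as that of MYC (-2.24 to -0.01 for genotype with DMSO) leaves both a small and a severalfold difference possible.

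MYCL, the lung-cancer MYC paralogue that is no member of the 10 but shares MAX, was lower in knockout clones. Its 9 control libraries with JQ1 ranged from 89.3 through a median of 127 to 206 normalized counts, and the 9 knockout libraries from 16.1 through 40.6 to 59.0. The groups did not overlap, and how many of all genes separate this way was not counted. The difference was -1.88 ± 0.40 (log2, adjusted p = 0.0265). This call was lost when any 1 control clone was left out (adjusted p = 0.0879 without clone 3, 0.0708 without clone 10, 0.077 without clone 13). With DMSO the difference was -1.64 ± 0.49 and did not pass (adjusted p = 0.0775). It passed with DESeq2 (-1.56, adjusted p = 0.0172) and without knockout clone 2-1 (-2.05, adjusted p = 0.0389).

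MAX, the obligate partner, did not pass in any comparison. Control libraries with DMSO ranged from 681 to 902 normalized counts (median 799.6) and with JQ1 from 652 to 1004 (median 898). In knockout clones the ranges were 767 to 1066 (median 958) with DMSO and 719 to 1115 (median 1044) with JQ1. Treatments overlapped in 5 of 6 clones. The JQ1 changes were 0.13 (95% interval -0.03 to 0.30; adjusted p = 0.167) in control clones and 0.04 (-0.13 to 0.20; adjusted p = 0.685) in knockout clones, so these intervals reach no more than 0.30 on the log2 scale. MAX overlaps FNTB on the opposite strand, so shared reads can be told apart only by strand.

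The MXD genes, which encode the repressive MAX partners, split: MXD1 and MXD4 rose with JQ1, and MXI1 and MXD3 fell or did not pass. MXD1, a gene that typically increases as cells differentiate, had 118 to 259 normalized counts (median 164) in control libraries with DMSO and 244 to 456 (median 273) with JQ1. In knockout clones it had 208 to 300.0 (median 272) with DMSO and 408 to 764 (median 474) with JQ1; the 764 is the divergent library. JQ1 libraries lay above DMSO libraries in every clone. The rise was 0.90 ± 0.10 (adjusted p = 0.000229) in control clones and 0.94 ± 0.10 (adjusted p = 0.000189) in knockout clones, 0.84 without that library. The interval of the difference between genotypes, -0.28 to 0.36, includes 0.

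Among the control clones it was clone 3, with the least MYC, that had the most MXD1. Its mean was 242 with DMSO against 124 in clone 10 and 152 in clone 13. Knockout clones had 232, 274 and 270.1. Over the 12 clone-by-treatment means the Pearson correlation of MYC with MXD1 was 0.08. The genotype difference in MXD1 was 0.63 ± 0.28 with DMSO (adjusted p = 0.202) and 0.67 ± 0.24 with JQ1 (adjusted p = 0.125). With JQ1 every knockout clone mean lay above every control clone mean, as for 18.6% of all genes. Without control clone 3 the JQ1 value was 0.92 and passed (adjusted p = 0.0374).

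MXD4, expressed in many differentiated tissues, had 292 to 532 normalized counts (median 488) in control libraries with DMSO and 649 to 1203 (median 859) with JQ1. Knockout libraries had 325 to 801 (median 475) and 608 to 1096 (median 788). Within each clone the treatments were apart, though across clones they overlapped: clone 2-1 with DMSO (mean 745) exceeded clone 15 with JQ1 (mean 633). MXD4 rose by 0.99 ± 0.15 (adjusted p = 0.00111) in control clones and by 0.70 ± 0.15 (adjusted p = 0.0056) in knockout clones.

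MXI1, the MXD gene with the highest level per length with DMSO, went the other way. Control libraries had 581 to 931 normalized counts (median 795) with DMSO and 447 to 668 (median 601) with JQ1. The fall was 0.45 on the log2 scale (-0.45 ± 0.09, adjusted p = 0.0042). No control clone showed overlap, a pattern that was not counted over all genes. Knockout libraries had 374 to 629 (median 523) and 316 to 527 (median 443). The change there, -0.25 ± 0.09, missed the threshold (adjusted p = 0.0527) and passed without the divergent library (-0.26, adjusted p = 0.0246); only clone 2-1 showed no overlap. With DMSO the 3 knockout clone means (511, 385 and 619) lay below the 3 control clone means (623, 806 and 908), as for 17.1% of all genes, and the difference of -0.63 ± 0.23 did not pass (adjusted p = 0.132).

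MXD3, which is known for expression in dividing cells, had few reads. Control libraries had 123 to 199.8 normalized counts (median 167) with DMSO and 63.8 to 129.9 (median 107) with JQ1. Knockout libraries had 84.3 to 239 (median 119.7) and 44.4 to 129.7 (median 76.6). It fell by 0.70 on the log2 scale in control clones (-0.70 ± 0.16, adjusted p = 0.00787) and by 0.64 in knockout clones (-0.64 ± 0.16, adjusted p = 0.0112). Without the divergent library the change in knockout clones was -0.77 (adjusted p = 0.0031). The call was lost in control clones without clone 13 (-0.49, adjusted p = 0.0603) and in knockout clones without clone 2-1 (-0.56, adjusted p = 0.0576) or with edgeR (-0.60, adjusted p = 0.0531). MXD3 overlaps RAB24 on the same strand and PRELID1 on the opposite one, so reads could be shared and the value is uncertain; MXD1 likewise overlaps SNRNP27 on its own strand.

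MNT, the widely expressed MAX partner that limits MYC, rose slightly and evenly. Control libraries had 362 to 438 normalized counts (median 406) with DMSO and 489.6 to 658 (median 525) with JQ1. These groups did not overlap, and the share of all genes that do so was not counted. Knockout libraries had 433 to 697 (median 535) and 554 to 898 (median 769.8). The rise was 0.42 ± 0.07 (adjusted p = 0.00198) in control clones and 0.38 ± 0.07 (adjusted p = 0.00329) in knockout clones. Without the divergent library the rise in knockout clones was 0.44 (adjusted p = 0.00219). On the FPKM scale the rises in control and knockout clones were smaller and missed the threshold (0.27 with adjusted p = 0.0728, and 0.28 with adjusted p = 0.0691). Knockout clone means exceeded every control clone mean under both treatments, as for 17.3% of all genes with DMSO and 18.6% with JQ1, but the differences of 0.42 and 0.38 did not pass (adjusted p = 0.153 with DMSO and 0.2 with JQ1).

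MGA gave no call that held. Control libraries had 767 to 1273 normalized counts (median 925) with DMSO and 736 to 1328 (median 782) with JQ1, overlapping in every clone. Knockout libraries had 857 to 1147 (median 965) and 1003 to 2719 (median 1042). The value of 2719 belongs to the divergent library, and the next highest was 1124. The rise of 0.26 ± 0.08 in knockout clones (adjusted p = 0.0305) became 0.11 (adjusted p = 0.152) without that library. In control clones the change was -0.13 ± 0.08 (adjusted p = 0.232).

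MLX, the hub of the glucose-sensing branch, fell in every clone. Control libraries had 983 to 1257 normalized counts (median 1059) with DMSO and 839 to 964 (median 915) with JQ1; knockout libraries had 1059.9 to 1431 (median 1275) and 777 to 1313 (median 975). Clone ratios ran from 0.704 to 0.905. The fall was 0.27 on the log2 scale (-0.27 ± 0.09, adjusted p = 0.0368) in control clones and 0.30 (-0.30 ± 0.09, adjusted p = 0.0257) in knockout clones. Both calls for this small change were lost under other settings. In control clones edgeR gave an adjusted p of 0.0729 and DESeq2 0.0888, and limma gave 0.227 without clone 3, 0.065 without clone 10, 0.105 without clone 13 and 0.0523 without knockout clone 15. In knockout clones limma gave 0.0986 without clone 12 and 0.0611 without clone 15. MLX and PSMC3IP overlap on opposite strands.

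The E-box CACGTG, a palindrome that reads alike on both strands, was searched in promoter windows of 300 bases, 250 before to 50 after each RefSeq transcript start on GRCh38.p14. Windows were given for 9 of the 10 genes (14 windows; none for MYC). It occurred in 3 of these genes, MXD4, MNT and MLX, and in 8.77% of all 27305 genes and 7.26% of all 35116 windows. The E-box lies 238 bases before the start in MXD4, 193 before in MNT and 50 before in MLX. These stretches are shown because these 3 genes changed with JQ1 in all 6 clones, MXD4 and MNT upward and MLX downward, so the letters stand in members that moved either way; the windows of MAX, MXI1, MXD1, MXD3, MGA and MYCN held no match. The fourth stretch is from ARRDC4, a target of MondoA and MLX described with the MLX branch, whose E-box lies 210 bases before the start. TXNIP, MLXIP and MLXIPL, searched alongside it, held no match in their windows. Capitals mark CACGTG; a match is a description of letters, not a measured binding site. No GENCODE 29 gene overlaps the stretches, which are MXD4 chr4:2262295-2262359 (minus strand), MNT chr17:2401185-2401310 (minus strand), MLX chr17:42566942-42567067 (plus strand) and ARRDC4 chr15:97960453-97960578 (plus strand).
MXD4: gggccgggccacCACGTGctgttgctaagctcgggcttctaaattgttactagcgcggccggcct
MNT: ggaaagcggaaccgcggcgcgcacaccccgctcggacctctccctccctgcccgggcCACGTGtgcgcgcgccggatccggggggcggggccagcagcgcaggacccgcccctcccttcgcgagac
MLX: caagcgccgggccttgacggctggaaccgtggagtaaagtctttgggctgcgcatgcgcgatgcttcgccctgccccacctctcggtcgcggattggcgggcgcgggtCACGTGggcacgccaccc
ARRDC4: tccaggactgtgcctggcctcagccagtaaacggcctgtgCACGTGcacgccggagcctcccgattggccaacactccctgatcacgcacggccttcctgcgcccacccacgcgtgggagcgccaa

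The balance of MAX partners shifted toward MYC with JQ1 at the RNA level. The MYC-family share is the FPKM of MYC, MYCN and MYCL as a percentage of that sum plus the 4 MXD genes, MNT and MGA. In control clones it was 50.5% ± 10.5 (SD, n = 3 clones) with DMSO and 66.7% ± 6.07 with JQ1. In knockout clones it was 33.8% ± 7.73 with DMSO and 56.0% ± 5.22 with JQ1, or 58.5% ± 9.56 without the divergent library (its own share was 46.9%, its clone's others 68.7% and 70.4%). JQ1 libraries exceeded DMSO libraries of the same clone in all 6 clones. The mean summed FPKM of the MXD genes, MNT and MGA went from 58.3 ± 5.79 to 56.1 ± 4.69 in control clones and from 51.7 ± 10.3 to 55.7 ± 7.24 in knockout clones, within the spread between clones. With DMSO, control clone 3 (38.5%) fell below knockout clone 12 (42.7%), and the genotypes overlapped.

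Within the MXD subfamily the mean shares of MXI1 and MXD3 were lower with JQ1 and those of MXD4 and MXD1 higher. MXI1 supplied 53.7% ± 5.14 of the summed MXD FPKM in control clones with DMSO and 41.0% ± 6.81 with JQ1. MXD4 went from 23.1% ± 1.56 to 37.6% ± 2.14, with no overlap between clones. MXD1 went from 5.11% ± 2.04 to 9.42% ± 3.41 and MXD3 from 18.1% ± 2.19 to 12.0% ± 5.39. In knockout clones MXI1 supplied 42.7% ± 6.68 and then 32.9% ± 4.36, MXD4 29.9% ± 3.02 and then 38.8% ± 4.91, MXD1 10.2% ± 2.37 and then 18.7% ± 4.46, and MXD3 17.3% ± 6.16 and then 9.67% ± 2.39. Without the divergent library these JQ1 shares were 33.7%, 39.8%, 17.4% and 9.10%. These shares are of RNA; MYC and MXD1 proteins are known to turn over fast, and protein was not measured here.

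**Figure D3:**
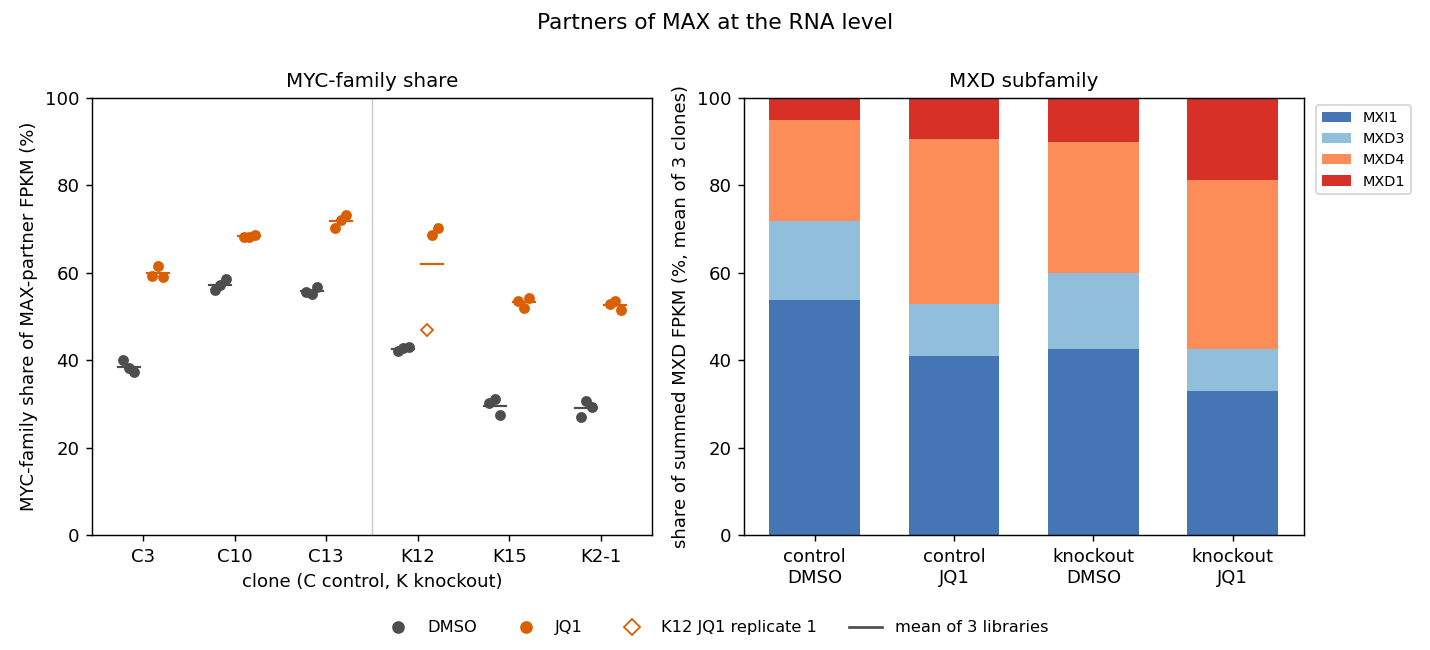
Left, FPKM of the MYC family as a percentage of all MAX partners in each library, by clone (C control, K knockout), with lines at the mean of 3 libraries and the divergent library as an open diamond. Right, mean share of each MXD gene in the summed MXD FPKM over 3 clones; JQ1 raises the MYC share in all 6 clones, and the mean shares of MXI1 and MXD3 are lower with JQ1 and those of MXD4 and MXD1 higher.

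The MLX branch moved with JQ1 beyond MLX itself. MLXIP, which encodes MondoA, had 1609 to 1928 normalized counts in control libraries with DMSO and 2187 to 2752 with JQ1, and 1052 to 1313 and 1622 to 2613 in knockout libraries. The treatments did not overlap in either genotype, a separation that was not counted over all genes. MLXIP rose by 0.47 ± 0.10 (adjusted p = 0.00458) in control clones and by 0.76 ± 0.10 (adjusted p = 0.000441) in knockout clones. With DMSO it was lower in knockout clones, by -0.57 ± 0.13 (adjusted p = 0.0348); this call was lost when any 1 control clone was left out (adjusted p = 0.106 without clone 3, 0.102 without clone 10, 0.12 without clone 13) and without knockout clone 12 (0.0517) or 15 (0.0803).

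MLXIPL, which encodes the liver glucose sensor ChREBP, moved in opposite directions in the genotypes; it was picked for this after its values were seen, as its mean lies under the 50 counts asked of named genes. Control libraries had 20.1 to 95.3 normalized counts (median 66.6) with DMSO and 31.3 to 138 (median 101) with JQ1, and JQ1 libraries lay above DMSO libraries in 3 of 3 control clones. Knockout libraries had 16.1 to 65.2 (median 21.7) and 4.73 to 35.7 (median 13.2), and JQ1 libraries lay below in 3 of 3 knockout clones. The share of all genes with these separations over 3 clones was not counted. The changes were 0.66 ± 0.18 (adjusted p = 0.018) and -1.02 ± 0.18 (adjusted p = 0.00228). The control rise was lost on FPKM (0.0584), without any 1 control clone (0.112, 0.071 and 0.0827 without clones 3, 10 and 13) and without replicate 2 (0.122). The difference of -1.68 ± 0.26 passed (limma adjusted p = 0.0263), and -1.75 without the divergent library (adjusted p = 0.0129), whereas edgeR gave -1.69 with adjusted p = 0.0817, and leaving out any 1 control clone ended the call (adjusted p = 0.102 without clone 3, 0.14 without clone 10, 0.123 without clone 13), as did leaving out knockout clone 15 (0.0688), replicate 2 (0.0966) or replicate 3 (0.0603).

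Of 5 tested target genes of MondoA and MLX, 4 rose with JQ1 in control clones, where 23.0% of all genes rose, and 3 in knockout clones, where 23.9% did; none was called lower. TXNIP, which restrains glucose uptake and binds thioredoxin, rose by 1.70 ± 0.48 (adjusted p = 0.0197) in control clones, from 402 ± 181 to 1259 ± 458 normalized counts (SD, n = 3 clones), and by 2.92 ± 0.48 (adjusted p = 0.00154) in knockout clones, from 409 ± 258 to 2835 ± 1355. The TXNIP ratio was 27.2 in knockout clone 12, 5.15 in clone 15 and 3.11 in clone 2-1, against 2.58 to 4.29 in control clones. Without knockout clone 12 the knockout rise was 2.00 on the log2 scale (adjusted p = 0.000192). ARRDC4, an arrestin-domain relative of TXNIP, rose by 1.22 ± 0.31 (adjusted p = 0.0119) and 1.95 ± 0.31 (adjusted p = 0.00122). FASN, the fatty acid synthase, rose by 0.94 ± 0.14 (adjusted p = 0.000951) and 0.44 ± 0.14 (adjusted p = 0.0302). The fourth in control clones was KLF10 (0.64 ± 0.11, adjusted p = 0.00159), named after its values were seen. The calls of TXNIP and ARRDC4 in control clones were lost when any 1 control clone was left out (TXNIP adjusted p = 0.105, 0.0752 and 0.0587 without clones 3, 10 and 13; ARRDC4 0.0568, 0.0653 and 0.0518), and that of FASN in knockout clones in 5 of 18 alternative settings (with edgeR 0.0692, without control clone 10 0.0515, without knockout clone 12 0.0936 or 2-1 0.147, and without replicate 3 0.0917). FASN was also lower in knockout clones, by -1.13 ± 0.16 (adjusted p = 0.0064) with DMSO and -1.63 ± 0.25 (adjusted p = 0.00852) with JQ1. The differences between genotypes did not pass for TXNIP (1.22, 95% interval -0.34 to 2.78, adjusted p = 0.328) or ARRDC4 (0.73, interval -0.26 to 1.73, adjusted p = 0.356).

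**Figure D4:**
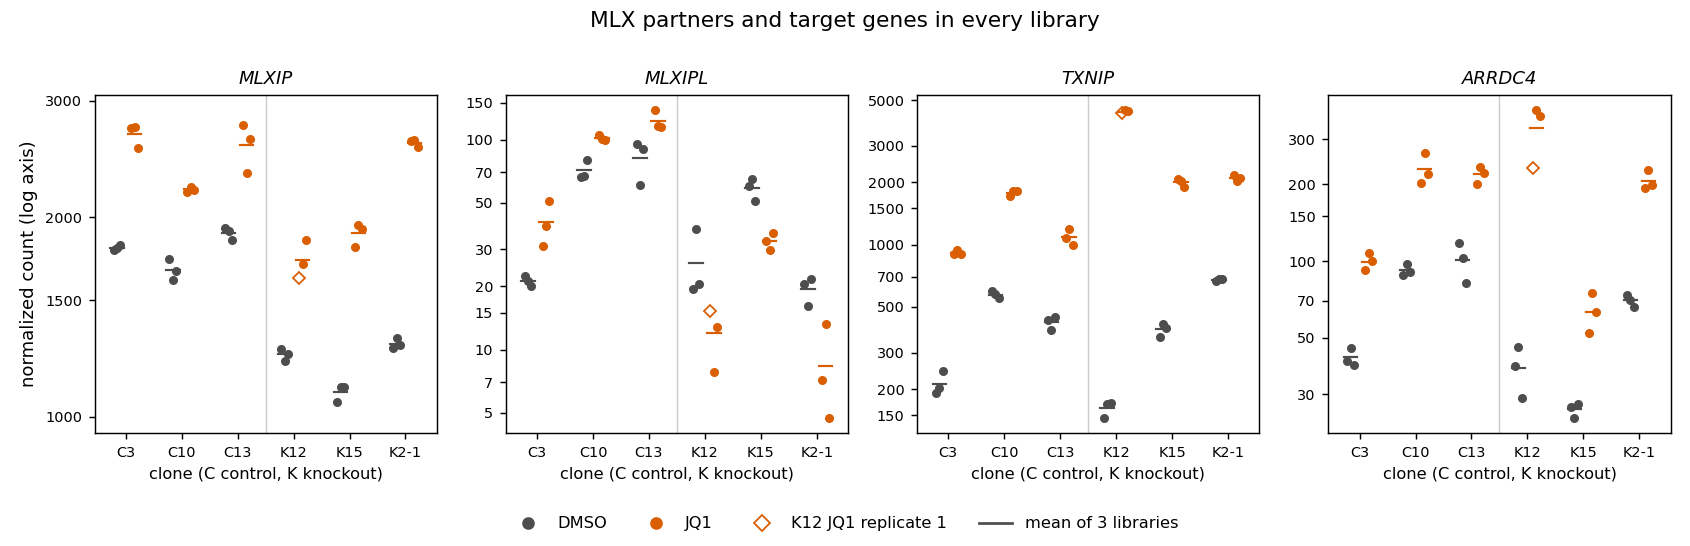
Normalized counts (log axis) of MLXIP, MLXIPL, TXNIP and ARRDC4 by clone (C control, K knockout) and treatment; points are libraries, lines means of 3, and the open diamond is the divergent library. MLXIPL rises with JQ1 in the 3 control clones and falls in the 3 knockout clones, while the other genes rise in all 6.

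Genes that MYC-MAX dimers are known to activate did not move as a block when MYC rose. Of 48 tested, 15 rose and 19 fell with JQ1 in control clones, where 23.0% and 24.9% of all genes did. The median was 0.04 (log2) against -0.01 for all genes tested. In knockout clones 10 rose and 18 fell, where 23.9% and 25.7% of all genes did, with a median of -0.00095 against -0.03. Without the divergent library the counts were 18 and 18 (26.2% and 30.2% of all genes). ODC1, the first enzyme of polyamine synthesis, rose by 1.42 ± 0.12 (adjusted p = 8.99e-05) in control clones and 2.07 ± 0.12 (adjusted p = 3.55e-05) in knockout clones. PTMA, prothymosin alpha, rose by 1.07 ± 0.11 (adjusted p = 0.000207) and 1.41 ± 0.11 (adjusted p = 7.53e-05). E2F2, a cell-cycle factor, fell by 1.04 in control clones (-1.04 ± 0.14, adjusted p = 0.000641). Its mean was also lower with JQ1 in knockout clones, at 658 ± 109 normalized counts against 1151 ± 58.5. PPAN, a ribosome assembly factor, fell by 1.07 in knockout clones (-1.07 ± 0.11, adjusted p = 0.00015). Its mean was also lower with JQ1 in control clones, at 638 ± 12.4 against 1206 ± 73.8. Of the 48, 0 passed the test of the difference between genotypes, where 3.10% of all genes did.

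Between genotypes the activated genes were mostly uncalled. With DMSO 1 of 48 passed, where 12.5% of all genes did, and was lower in knockout clones. It was MTHFD2, the mitochondrial folate enzyme, at 2083 ± 316 normalized counts against 5208 ± 600 (log2 difference -1.33 ± 0.16, adjusted p = 0.00384). With JQ1 2 passed (12.0% of all genes did) and were lower, MTHFD2 (-1.17 ± 0.19, adjusted p = 0.0108) and FBL, the nucleolar methyltransferase fibrillarin (-0.60 ± 0.13, adjusted p = 0.0269). The FBL call was lost without the divergent library (-0.51, adjusted p = 0.0692) and in 7 of 18 settings in all, among them leaving out any 1 control clone (0.0669, 0.124 and 0.0747 without clones 3, 10 and 13). Without the divergent library the JQ1 counts were 1 higher and 1 lower. The list medians were -0.17 and -0.16, against 0.01 and 0.01 for all genes.

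Of 7 tested genes that MYC is known to repress, 4 rose and 2 fell with JQ1 in control clones (all genes: 23.0% and 24.9%). In knockout clones 3 rose and 1 fell (23.9% and 25.7%), and 2 fell without the divergent library (30.2% of all genes). CDKN1A, the CDK inhibitor p21, rose by 1.89 ± 0.17 (adjusted p = 9.39e-05) and 2.08 ± 0.17 (adjusted p = 7.15e-05) while MYC rose as well. CDKN2B, the CDK inhibitor p15, rose by 1.66 ± 0.19 (adjusted p = 0.000261) and 0.71 ± 0.19 (adjusted p = 0.0141; 0.0537 without knockout clone 12 and 0.0743 without clone 15). NDRG1 rose in control clones (1.49 ± 0.16, adjusted p = 0.000192), and NDRG2 fell in knockout clones (-1.05 ± 0.24, adjusted p = 0.00739). In knockout clones the NDRG1 means were 839 ± 1069 normalized counts with DMSO and 1203 ± 1432 with JQ1. In control clones those of NDRG2 were 88.3 ± 47.1 and 50.8 ± 43.0. With DMSO 3 were higher in knockout clones and none lower, where 12.5% of all genes passed in either direction. They were CDKN2B (2.04 ± 0.50, adjusted p = 0.0417), NDRG1 (4.34 ± 1.02, adjusted p = 0.0372) and NDRG2 (2.84 ± 0.65, adjusted p = 0.034), each losing its call when any 1 control clone was left out (adjusted p between 0.052 and 0.135). With JQ1 CDKN2B (1.09 ± 0.24, adjusted p = 0.0312) and NDRG1 (3.56 ± 0.89, adjusted p = 0.0443) were higher, where 12.0% of all genes passed in either direction. These JQ1 calls were lost in 6 and 8 of 18 settings, including edgeR (0.0568 and 0.0686) and leaving out any 1 control clone (0.0501 to 0.111 for CDKN2B, 0.0676 to 0.121 for NDRG1).

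Of 14 tested cofactors that MYC recruits, 2 rose and 6 fell with JQ1 in control clones (all genes: 23.0% rose, 24.9% fell) and 2 rose and 8 fell in knockout clones (23.9% and 25.7%). The medians were -0.18 and -0.28, against -0.01 and -0.03 for all genes, and the list as such was not tested. The histone acetyltransferases KAT5 (-0.90 ± 0.08, adjusted p = 8.49e-05) and KAT2A (-0.59 ± 0.06, adjusted p = 0.000165) fell in control clones, and in knockout clones by -0.49 ± 0.08 (adjusted p = 0.00128) and -0.72 ± 0.06 (adjusted p = 8e-05). HCFC1, a host cell factor that binds MYC, fell by 0.41 (-0.41 ± 0.08, adjusted p = 0.00318) and 0.52 (-0.52 ± 0.08, adjusted p = 0.00101).

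Of 17 tested regulators of MYC protein turnover, 9 rose and 3 fell with JQ1 in control clones (all genes: 23.0% and 24.9%) and 10 rose and 3 fell in knockout clones (23.9% and 25.7%). The medians were 0.36 and 0.20, against -0.01 and -0.03 for all genes. The kinases PIM1 and PIM2, which are known to stabilise MYC, rose by 1.03 ± 0.22 (adjusted p = 0.00532) and 1.39 ± 0.15 (adjusted p = 0.000246) in control clones and by 1.35 ± 0.22 (adjusted p = 0.0014) and 1.12 ± 0.15 (adjusted p = 0.000655) in knockout clones. AURKA, the mitotic kinase that shields MYC-family proteins, fell by 1.45 (-1.45 ± 0.11, adjusted p = 5.8e-05) and 1.26 (-1.26 ± 0.11, adjusted p = 9.43e-05). Between genotypes with DMSO, PPP2R5A, a phosphatase subunit that acts on MYC, was higher in knockout clones (1.03 ± 0.15, adjusted p = 0.00771), and SKP2, a ubiquitin ligase subunit, was lower (-0.74 ± 0.14, adjusted p = 0.0203; 0.059 without control clone 3, 0.0732 without control clone 10, 0.0578 without knockout clone 15). With JQ1 PPP2R5A alone passed (0.77 ± 0.14, adjusted p = 0.0161; 0.0522, 0.062 and 0.0582 without control clones 3, 10 and 13).

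Of 14 tested subunits of the SIN3 corepressor, the partner of the MXD proteins, 4 rose and 2 fell with JQ1 in control clones (all genes: 23.0% and 24.9%). In knockout clones 2 rose and 3 fell (23.9% and 25.7%), and the medians were 0.09 and -0.04. ARID4A fell and BRMS1 rose in control clones (-0.72 ± 0.11, adjusted p = 0.00101, and 0.50 ± 0.10, adjusted p = 0.00376), and its paralogue ARID4B rose in knockout clones (0.45 ± 0.07, adjusted p = 0.00119). Without the divergent library the counts in knockout clones were 3 and 1.

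Partners of MGA in PRC1.6 gave 2 rises and 4 falls among 10 tested in control clones (all genes: 23.0% and 24.9%). In knockout clones there were 3 rises and 3 falls (23.9% and 25.7%), or 5 and 2 without the divergent library (26.2% and 30.2%). The medians were -0.04 and 0.03. RYBP, which stimulates the complex's ubiquitin ligase, rose by 1.08 ± 0.09 (adjusted p = 7.88e-05) and 0.98 ± 0.09 (adjusted p = 0.000112). L3MBTL2 fell by 0.48 (-0.48 ± 0.07, adjusted p = 0.000967) and 0.33 (-0.33 ± 0.07, adjusted p = 0.00512). Of 17 germline genes that the complex is known to silence, 8 stood in the table and 4 were tested. TDRKH alone passed a test: it was lower in knockout clones with DMSO (-0.74 ± 0.14, adjusted p = 0.017; 0.0627, 0.092 and 0.0637 without control clones 3, 10 and 13) and rose with JQ1 in knockout clones (0.59 ± 0.07, adjusted p = 0.000286).

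Other leucine-zipper factors that bind E-boxes gave 0 rises and 4 falls among 9 tested with JQ1 in control clones (all genes: 23.0% and 24.9%) and 3 rises and 3 falls in knockout clones (23.9% and 25.7%), with medians of -0.36 and -0.04. Without the divergent library the counts were 0 and 5, and 2 and 3; USF1 in knockout clones was the rise lost (adjusted p = 0.0266 with it, 0.0535 without). USF2, an upstream stimulatory factor, fell by 0.86 (-0.86 ± 0.08, adjusted p = 0.000106) and 1.08 (-1.08 ± 0.08, adjusted p = 5.5e-05). SREBF2, the regulator of sterol synthesis, was lower in knockout clones with DMSO (-1.71 ± 0.14, adjusted p = 0.000819) and with JQ1 (-1.46 ± 0.16, adjusted p = 0.00229). USF1 was lower in knockout clones with DMSO (-0.79 ± 0.14, adjusted p = 0.0156; 0.0599, 0.0679 and 0.06 without control clones 3, 10 and 13), and ARNTL, the clock factor BMAL1, was higher with JQ1 (1.69 ± 0.31, adjusted p = 0.0163; 0.0501, 0.0708 and 0.0548 without control clones 3, 10 and 13).

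Of 5 tested neighbours of MYC on its chromosome, 0 rose and 1 fell with JQ1 in control clones, where 23.0% and 24.9% of all genes did. The fall was that of FAM84B (-0.26 ± 0.07, adjusted p = 0.0195). This call was lost without any 1 control clone (adjusted p = 0.113, 0.0888 and 0.0709 without clones 3, 10 and 13) and without replicate 1 (0.0999). In knockout clones 0 rose and 1 fell (all genes: 23.9% and 25.7%), the non-coding gene PVT1 (-0.68 ± 0.11, adjusted p = 0.00173), which lies next to MYC and shares its enhancers. Without the divergent library, 0 fell in control clones, and 1 rose and 1 fell in knockout clones. FAM84B was lower in knockout clones with DMSO (-1.66 ± 0.33, adjusted p = 0.0216; 0.0876 and 0.078 without control clones 10 and 13, 0.0501 without knockout clone 15) and with JQ1 (-1.57 ± 0.39, adjusted p = 0.0449; lost in 10 of 18 settings, with 0.0818 without the divergent library, 0.0572 with edgeR and 0.0682 on FPKM), and TRIB1, a pseudokinase, was higher with JQ1 (1.97 ± 0.24, adjusted p = 0.0032).

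The genes whose pattern was most like that of MYC over the 12 clone-by-treatment means were NANOS1 (Pearson r = 0.956), WTAP (0.938), ITFG2 (0.937), CYB5R4 (0.937) and GXYLT1 (0.936), of 12362 genes with a mean of at least 50 normalized counts. NANOS1, which encodes an RNA-binding protein, had means of 133 and 373 in control clones with DMSO and JQ1 and of 86.2 and 274 in knockout clones. Among the network genes themselves, r with MYC was highest for MXD4 (0.62) and lowest for MLX (-0.74), and was 0.08 for MXD1. MXD1 and MXI1 had r = -0.82 with each other. These 12 means share clones and treatments, so the values only describe which genes follow the same pattern.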

How the data were processed

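RNA from the 36 samples was made into TruSeq Stranded mRNA libraries, per the labels' protocols. The submitters' processing notes name cutadapt, STAR, RSEM and hg19, without versions. The authors deposited FPKM and, as a signal, normalized counts that are not scaled by length. Dividing out each library's size factor returned whole reads for 100% of these deposited counts (tolerance 1e-06). The 3 libraries of a clone were averaged, so the clone was the replicate. The test was limma 3.58.1 (R 4.3.3, trended prior) on log2(normalized count + 1), which understates changes of low genes, for 15819 genes with at least 10 counts in at least 9 libraries. For JQ1, each clone's treated and solvent means were subtracted first, and the 6 clones shared 1 estimate of the spread. All p-values are two-sided, Benjamini-Hochberg adjusted over all genes at a threshold of 0.05, and come from limma unless edgeR 4.0.16 or DESeq2 1.42.0, run on the recovered reads, is named. Alternatives were a pseudocount of 5, no filter, TMM, FPKM, single libraries, and leaving out clones or replicates. Tests were checked on simulated data. Members and lists were chosen with earlier results of these data known. From each list, up to 3 called genes of largest change with a mean of at least 50 normalized counts are named. In bulk RNA, fewer cells of a type and less RNA per cell cannot be told apart. Promoters come from RefSeq (GRCh38.p14).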

Additional observations from a re-analysis of the deposited data

Results flagged for a closer look

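For 3 genes of the lists the JQ1 response differed between knockout and control clones by the test of the difference itself (limma, knockout minus control, log2). For MLXIPL, the ChREBP gene, the difference was -1.68 (adjusted p = 0.0263). For USF1, an E-box factor, it was 0.55 (adjusted p = 0.0297): USF1 fell in control clones from 1334 ± 47.9 to 1048 ± 20.8 normalized counts (SD, n = 3 clones) and went from 775 ± 103 to 902 ± 154 in knockout clones. For TDRKH, a germline gene, it was 0.58 (adjusted p = 0.0325): its means were 687 ± 7.71 and 697 ± 31.0 in control clones and 412 ± 30.4 and 622 ± 45.5 in knockout clones. None of MLXIPL, USF1 and TDRKH passed with edgeR (adjusted p = 0.0817, 0.0799 and 0.0831) or without any single control clone, knockout clone 15, replicate 2 or replicate 3 (limma). Without the divergent library, 3 MYC-activated genes were also called higher. In the lists of MYC protein turnover, SIN3 subunits and MondoA and MLX targets, 1 gene each was then called lower. Of the neuroendocrine markers, 4 were then higher and 1 lower. These list counts stand without the share of all genes in that setting, so they are a description only. Leaving out a clone, a replicate or this library gave 0 to 1213 calls over all genes, against 490 with all libraries. No network gene passed this test.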

How the results depend on the processing

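Of 810 recomputed log2 values of the network genes, 731 kept direction and side of the threshold, 35 passed only under the alternative, 23 lost the call and 21 changed sign, all of them values that did not pass. Most of the 35 came from the settings that treat single libraries as replicates. Some values could not change, such as genotype with DMSO when only the divergent JQ1 library was left out. The tally is therefore a description and no measure of stability. Over all genes, the main counts of calls were 1985 (genotype, DMSO), 1893 (genotype, JQ1), 7572 (JQ1, control), 7845 (JQ1, knockout) and 490 (difference). DESeq2 called 3327 and 3054 genes between genotypes and 1042 for the difference, where edgeR called 12 and FPKM gave 211. Leaving out a clone, a replicate or the divergent library gave 906 to 2033, 760 to 1766, 4945 to 8966, 6087 to 8922 and 0 to 1213 genes in that order, and 0 to 1, 0 to 1, 5 to 7, 5 to 7 and 0 to 0 network genes. DESeq2 called 1 network gene between genotypes with DMSO.

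Replicate numbers did not pair the samples: same-numbered DMSO and JQ1 libraries of a clone had correlations of -0.217 to 0.116 over 11104 genes, 1 of 18 over 0.1, and 6 of 18 libraries correlated best with their own number. Treating single libraries as replicates, with no replicate block, called 7856, 6803 and 4503 genes (genotype with DMSO, with JQ1, difference) and 6, 4 and 3 network genes. With the replicate block the counts were 7465, 6503 and 4476 genes and 6, 4 and 2 network genes. Libraries of 1 clone share its genome, so these counts take the spread within clones as the error.

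Values that changed sign were those of the difference for MNT (0.0015 on FPKM; -0.20 to 0.12 over all settings), MXD1 (-0.061 to 0.18), MLX (-0.11 to 0.085) and MXD3 (-0.15 to 0.22), and of the genotype for MXD4 (-0.10 to 0.47 with DMSO, -0.29 to 0.077 with JQ1) and MGA (-0.16 to 0.17 with DMSO). Where depth is low, as for MLXIPL, MXD3 and MYCL, counting error adds to the spread between clones.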
